A study of Homo sapiens with 12 samples.

Results

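The genes described here are the EGF family ligands NRG1, AREG, EREG, HBEGF, TGFA and BTC and the receptors EGFR, ERBB2, ERBB3 and ERBB4, taken by gene symbol from the platform's annotation. Of these 10 genes, 9 had at least 1 probe set under their name, out of 19775 named genes on the array. Together they had 38 of its 54675 probe sets, a probe set being a group of short probes whose signal is summarised as 1 value. AREG (amphiregulin) had none under its name and was not analysed here. HK-2, an immortalised epithelial line from the human kidney proximal tubule, was treated with a low dose of the compound called Nnm or with its vehicle for 24 h or 48 h, with 3 arrays in each of the 4 groups, every one labelled a biological replicate. All 12 cultures were of this 1 cell line. All were kept in a medium that contained 10 ng/ml recombinant human EGF, with hydrocortisone, insulin, transferrin and selenite, so a ligand of EGFR was present in controls and treated cultures alike. The dose in numbers and the vehicle were not given in the sources used here. The series' design text gives its purpose as a search for expression signatures of toxicity to kidney cells.

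EGF family ligands are made as membrane-anchored precursors that sheddases such as ADAM17 release. The free ligand makes ERBB receptors pair, and the paired kinases signal through adaptors to the RAS-ERK chain and to PI3K and AKT, which in turn induce feedback inhibitors. TGFA, EREG, HBEGF, AREG and BTC bind EGFR, EREG, HBEGF and BTC also bind ERBB4, and NRG1 binds ERBB3 and ERBB4. ERBB2 has no known soluble ligand of its own, and ERBB3 has little kinase activity, so both act in pairs with the other receptors. In kidney tubule cells the pathway is known for its part in growth and in repair after injury.

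Values are log2 expression values. A probe set was tested if it exceeded a log2 value of 4 on at least 3 arrays, and it passed the test at a Benjamini-Hochberg adjusted p under 0.05 over all 19832 tested probe sets (limma). Of the members, 20 probe sets of 7 genes were tested, and the other 18 did not meet this rule; 17 of them stayed below 4 on every array. BTC and ERBB4 had no tested probe set. Values of different probe sets are not compared with each other as levels, since probes differ in affinity.

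On every array 40.4% to 40.8% of all probe sets exceeded a log2 value of 4. The first principal component of the tested probe sets, with 48.9% of their variance, placed controls between 26.8 and 44.2 and the Nnm arrays of replicates 1 and 3 between -58.0 and -44.1. Nnm replicate 2 stood apart at -0.99 (24 h) and -1.10 (48 h), nearer to the controls than the other Nnm arrays. The replicate 2 arrays of all 4 groups also had the lowest values of the ACTB 5′ probe set minus its 3′ one, a measure of RNA integrity, at -1.17 to -1.09 against -0.86 to -0.74 on the other arrays. The same measure for GAPDH did not set replicate 2 apart, at 0.062 to 0.158 against 0.029 to 0.162 on the other arrays. All 6 epithelial markers were above 4, while of 11 proximal tubule markers with a probe set only DPP4, CDH6 and PAX8 were, and LRP2, CUBN and AQP1 were not. The summed level of the proximal tubule markers was 13.3 to 13.6 in 24 h controls and 13.4 to 14.2 with Nnm at 24 h (log2 scale). It was 13.3 to 13.5 in 48 h controls and 14.5 to 14.8 with Nnm at 48 h. Levels were summed on the linear scale, so this sum rests on the 3 markers above 4, mostly CDH6 and DPP4. Their 48 h changes were 1.38 and 1.19. Of 6 tested CDH6 probe sets, 2 shared the direction of that used at 24 h and 4 at 48 h. The sum therefore does not describe the marker list as a whole. None of 4 leukocyte markers, 1 of 5 endothelial markers (PECAM1, 3.80 to 4.66) and 3 of 8 fibroblast markers (COL1A1, DCN, LUM) were above 4. The summed level of the fibroblast markers ranged from 12.3 to 12.8 (24 h control), 12.1 to 12.8 (24 h Nnm), 12.2 to 12.3 (48 h control) and 12.4 to 12.6 (48 h Nnm) on the log2 scale; their part in the results was not tested.

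TGFA and EGFR are shown by the sequence around their starts, because the 3 TGFA probe sets moved together while those of EGFR did not, and because RefSeq lists 2 starts for each gene. No probe set was assigned to a start, and a link between starts and probe set changes was not tested. Each window holds 300 bases, 250 before and 50 after the start, 5′ to 3′ on the gene's strand (RefSeq, GRCh38.p14). Capitals mark GC boxes (GGGCGG or, on the other strand, CCGCCC) and AP-1 motifs (TGANTCA, which reads the same on both strands):
TGFA chr2:70553777-70554076, minus strand: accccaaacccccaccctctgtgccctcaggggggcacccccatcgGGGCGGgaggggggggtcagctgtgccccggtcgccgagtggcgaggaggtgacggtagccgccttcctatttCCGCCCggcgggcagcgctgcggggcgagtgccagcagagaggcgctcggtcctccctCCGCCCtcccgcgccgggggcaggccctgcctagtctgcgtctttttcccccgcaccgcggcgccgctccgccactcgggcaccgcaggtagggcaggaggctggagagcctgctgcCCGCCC
TGFA chr2:70553397-70553696, minus strand: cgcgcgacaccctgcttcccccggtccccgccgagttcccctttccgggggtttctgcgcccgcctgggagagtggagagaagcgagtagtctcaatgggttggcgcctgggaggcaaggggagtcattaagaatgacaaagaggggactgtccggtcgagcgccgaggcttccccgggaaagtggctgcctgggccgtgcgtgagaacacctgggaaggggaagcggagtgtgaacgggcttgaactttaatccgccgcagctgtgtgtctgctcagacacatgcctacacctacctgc
EGFR chr7:55018767-55019066, plus strand: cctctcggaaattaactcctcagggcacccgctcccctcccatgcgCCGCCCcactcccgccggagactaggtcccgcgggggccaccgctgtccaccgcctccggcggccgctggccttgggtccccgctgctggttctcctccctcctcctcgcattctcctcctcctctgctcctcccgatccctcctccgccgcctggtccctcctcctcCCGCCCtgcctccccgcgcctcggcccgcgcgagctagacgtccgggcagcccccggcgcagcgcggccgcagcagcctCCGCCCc
EGFR chr7:55109589-55109888, plus strand: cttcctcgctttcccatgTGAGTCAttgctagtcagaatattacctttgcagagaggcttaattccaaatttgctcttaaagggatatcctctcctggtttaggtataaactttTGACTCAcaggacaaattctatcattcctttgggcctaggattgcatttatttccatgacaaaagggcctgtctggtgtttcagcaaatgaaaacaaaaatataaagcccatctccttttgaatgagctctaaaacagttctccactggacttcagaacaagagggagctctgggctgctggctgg

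The upstream TGFA window held 4 GC boxes at 75.3% G and C, and the second TGFA window held none at 63.0%. The upstream EGFR window held 3 GC boxes at 75.3% G and C, and the second, within the gene, held 2 AP-1 motifs and no GC box at 42.0%. Among all 35116 RefSeq windows of this length, 45.0% held a GC box and 7.71% an AP-1 motif, so GC boxes are common and AP-1 motifs are not. Of the 10 member genes 8 were in the promoter table, with 10 windows; NRG1 and ERBB3 were not. HBEGF, whose 2 tested probe sets were lower with Nnm at 24 h only in the fit with a replicate block described below, had 5 GC boxes, AREG, BTC and ERBB4 had 1 each, EREG and the ERBB2 window had none, and ERBB2 had 1 AP-1 motif. The E-box CACGTG, present in 7.26% of windows, was in no member window, and the TATA box (TATAAA or TTTATA, 11.5% of windows) was in AREG and EREG (1 match each) and in the second EGFR window (2 matches). Matches describe the letters of these windows only.

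In outline, TGFA was lower with Nnm at 24 h in 2 of 3 probe sets and at 48 h in 1, and NRG1 was lower at 24 h in 1 of 5 tested probe sets. ERBB3 was higher at 24 h in 1 of 2 tested probe sets, and EGFR at 48 h in 1 of 5. EREG and ERBB2 did not pass the test at either time, and HBEGF passed only with a replicate block. At 24 h 4 of 20 member probe sets passed, 1 higher and 3 lower, where 14.8% of all tested probe sets passed (7.78% higher, 6.98% lower). At 48 h 2 passed, 1 higher and 1 lower, against 10.2% of all (6.26% higher, 3.97% lower). The shares of members that passed, 4 of 20 and 2 of 20, were thus near those of the whole array. The median change of the member probe sets was -0.50 at 24 h and -0.25 at 48 h, beside 0.00 and 0.01 over all tested probe sets.

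Replicate numbers were taken to pair the arrays, since the deviations of same-numbered arrays from their group means were positively correlated in every pair. The labels name no culture or day shared by a replicate number, so this pairing was read from these same values. With the replicate number as a block, 10 member probe sets passed at 24 h (2 higher, of which 1 entered the test through Nnm arrays only, and 8 lower) against 34.5% of all probe sets, and 5 at 48 h (2 higher, 3 lower) against 28.4% of all. Nnm and control arrays did not overlap at 11 of the 20 at 24 h (3 higher, 8 lower) against 37.3% of all probe sets, and at 6 at 48 h (2 higher, 4 lower) against 33.3%. In the bulk RNA of a culture, fewer cells that express a gene and less RNA per cell cannot be told apart.

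NRG1 (neuregulin 1), the ligand of ERBB3 and ERBB4, has many transcripts that differ at both ends, and its 6 probe sets are therefore described one by one. Probe set 206343_s_at was designed on the NRG1 transcript for SMDF, a neuregulin of type III whose N-terminal part differs from that of other types. Its values in replicates 1, 2 and 3 were 8.99, 8.98 and 9.60 in controls and 4.39, 7.86 and 5.83 with Nnm at 24 h. At 48 h they were 7.93, 8.44 and 8.46 in controls and 5.35, 7.70 and 6.49 with Nnm. All 6 Nnm arrays were below all controls of their time, and Nnm replicate 2 was the highest of the Nnm arrays at both times. The group mean was 9.19 ± 0.36 (SD, n = 3) in controls and 6.03 ± 1.74 with Nnm at 24 h, so that NRG1 206343_s_at fell 8.95-fold (log2 change -3.16, SE 0.76, limma adjusted p = 0.0248). At 48 h the means were 8.28 ± 0.30 and 6.52 ± 1.18, a log2 change of -1.76 (SE 0.76) with an adjusted p of 0.154, or 0.0461 with the replicate block and 0.0936 with the block fitted within each time. The 24 h call was lost without Nnm replicate 1 (adjusted p = 0.0828), Nnm replicate 3 (0.085), control replicate 1 (0.0625) or control replicate 3 (0.0979) of 24 h, with changes between -3.26 and -2.34. It was also lost without the filter on low values (0.0824) and with the 24 h arrays fitted alone (0.0716). Without both Nnm replicate 2 arrays the changes were -4.08 at 24 h and -2.36 at 48 h, and both passed (limma adjusted p = 0.000517 and 0.00669). These were the highest Nnm arrays here and their same-numbered controls were kept, so a larger fall was fixed in advance. The 2 passes therefore add no support.

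The other NRG1 probe sets did not pass the test at either time. Probe set 206237_s_at (from the transcript of heregulin beta 2) read 5.77, 5.54 and 5.60 in controls and 4.09, 5.41 and 5.18 with Nnm at 24 h, with the Nnm arrays below the controls (change -0.74, SE 0.28, limma adjusted p = 0.0918). It passed without Nnm 24 h replicate 2, at -1.0 (limma adjusted p = 0.0231), and was -0.34 without Nnm 24 h replicate 1 (adjusted p = 0.199). Replicate 2 was the highest Nnm array here, so a larger fall without it was fixed in advance and that pass adds no support. At 48 h its change was -0.05 (SE 0.28), and the groups overlapped. Probe set 208241_at (heregulin gamma) read 5.47, 5.69 and 4.90 in controls and 3.81, 5.21 and 4.35 with Nnm at 24 h, and 5.56, 5.20 and 4.65 against 4.04, 5.23 and 4.47 at 48 h. The groups overlapped at both times (changes -0.90, SE 0.40, and -0.56, SE 0.40). Without Nnm 24 h replicate 2 its 24 h change was -1.27 and passed (limma adjusted p = 0.0362), and without Nnm 24 h replicate 1 it was -0.57 (adjusted p = 0.413). Its highest Nnm array at 24 h was again replicate 2, so that pass adds no support either.

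Probe set 208232_x_at read 6.44, 6.74 and 6.58 in controls and 7.06, 6.78 and 6.76 with Nnm at 24 h, and 7.03, 6.69 and 6.91 against 6.43, 6.69 and 6.69 at 48 h. The Nnm arrays lay above the controls at 24 h (change 0.28, SE 0.14, limma adjusted p = 0.194) and below them at 48 h (change -0.28, SE 0.14, limma adjusted p = 0.217). Probe set 208230_s_at lay between 4.02 and 5.37 on all arrays, with changes of -0.06 and 0.10 (SE 0.26 each). Probe set 208231_at was not tested and lay between 2.30 and 2.36 on all 12 arrays.

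**Figure D1:**
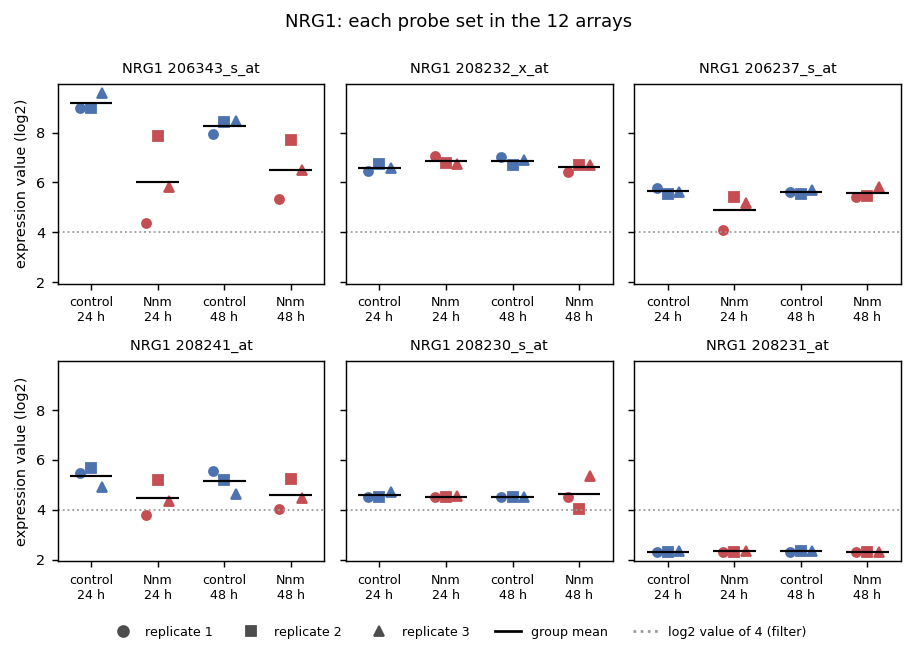
Log2 expression value (vertical axis) of each NRG1 probe set in the 4 groups, with 1 point per array (marker shape gives the replicate), bars at the group means and a dotted line at the filter value of 4. Only in 206343_s_at do all Nnm arrays lie below the controls at both times; 208232_x_at lies higher with Nnm at 24 h and lower at 48 h.

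The change of 1 NRG1 probe set minus that of another was also taken within arrays, for all 10 pairs of the 5 tested probe sets. These probe sets were kept apart because they were already known to disagree, so the differences are given as a description. Averaged over both times, 206343_s_at fell by 2.06 more than 206237_s_at, by 2.46 more than 208232_x_at, by 1.73 more than 208241_at and by 2.49 more than 208230_s_at. In each of these 4 comparisons the difference was below 0 in 6 of 6 same-numbered array pairs, and in each of the 6 comparisons without 206343_s_at the array pairs differed in sign. An exact two-sided permutation test that regrouped the arrays freely within each time, and not within replicate numbers, was run on the same differences; it called the same 4 of 10 pairs and restates the disagreement for which the probe sets were kept apart. Unequal change does not show that the other probe sets were unchanged.

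TGFA, a ligand of EGFR alone, had lower means with Nnm in all 3 of its probe sets at both times. Probe set 205016_at read 9.82, 9.50 and 9.59 in controls and 8.58, 8.95 and 8.80 with Nnm at 24 h. At 48 h it read 9.65, 9.47 and 9.60 in controls and 9.00, 8.92 and 9.27 with Nnm. All Nnm arrays were below all controls of their time. The mean went from 9.64 ± 0.17 to 8.78 ± 0.18 (SD, n = 3) at 24 h and from 9.57 ± 0.09 to 9.07 ± 0.18 at 48 h. TGFA 205016_at fell 1.81-fold at 24 h (log2 change -0.86, SE 0.14, limma adjusted p = 0.00928) and 1.42-fold at 48 h (log2 change -0.51, SE 0.14, limma adjusted p = 0.0449). The 24 h call held with each of the 12 arrays left out in turn, the largest adjusted p being 0.0481. The 48 h call was lost with 10 of the 12 arrays left out, all but Nnm 24 h replicates 1 and 2 (limma adjusted p from 0.053 to 0.144 where lost, change from -0.61 to -0.44). It was lost as well without the filter (0.0781), with median centring (0.0544), with the 48 h arrays alone (0.089), with the block within each time (0.0527) and without both Nnm replicate 2 arrays (0.0531).

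Probe set 211258_s_at of TGFA read 4.58, 4.39 and 4.33 in controls and 3.54, 3.77 and 4.02 with Nnm at 24 h, and 3.97, 3.96 and 4.52 against 3.70, 3.52 and 4.04 at 48 h. Only 6 of its 12 values exceeded 4, of which 3 were 24 h controls, so it passed the filter mainly where it was high. The groups did not overlap at 24 h (change -0.66, SE 0.19, limma adjusted p = 0.0457) and overlapped at 48 h (change -0.40, SE 0.19, limma adjusted p = 0.201). The 24 h call was lost with 9 of the 12 arrays left out, all but Nnm 48 h replicates 2 and 3 and control 48 h replicate 3 (adjusted p from 0.0551 to 0.154 where lost, change from -0.78 to -0.54), and without the filter (0.108), with the 24 h arrays alone (0.0648) or with another variance model (0.0549).

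Probe set 205015_s_at of TGFA read 5.09, 5.18 and 6.57 in controls and 4.22, 4.15 and 4.95 with Nnm at 24 h. At 48 h it read 5.28, 4.89 and 5.53 in controls and 4.09, 4.20 and 5.20 with Nnm. Replicate 3 was the highest array of every group, and Nnm was below the same-numbered control in 3 of 3 pairs at each time. The changes of -1.17 (SE 0.42, limma adjusted p = 0.0821) and -0.74 (SE 0.42, adjusted p = 0.272) passed with the replicate block (adjusted p = 0.00501 and 0.0241). They also passed with the block within each time (limma adjusted p = 0.0176 and 0.0458). Without control 24 h replicate 3 the 24 h change was -0.69 in the fit without the block (adjusted p = 0.265).

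HBEGF, a heparin-binding ligand of EGFR and ERBB4, had 2 tested probe sets. Probe set 203821_at read 6.71, 6.81 and 8.0 in controls and 6.48, 5.93 and 6.96 with Nnm at 24 h, and 5.89, 5.96 and 6.54 against 5.34, 5.47 and 6.48 at 48 h. Probe set 38037_at read 5.65, 5.37 and 6.97 against 4.91, 4.63 and 5.58 at 24 h, and 4.80, 4.91 and 5.21 against 4.40, 4.42 and 5.08 at 48 h. The groups overlapped in both probe sets at both times, replicate 3 was the highest array of every group, and Nnm was below the control of the same number in 3 of 3 pairs at each time. At 24 h the changes were -0.72 (SE 0.41, limma adjusted p = 0.245) and -0.95 (SE 0.39, adjusted p = 0.116). Both changes passed with the replicate block (adjusted p = 0.0144 and 0.0102) and with the block within each time (0.0317 and 0.0166). Without control 24 h replicate 3 they were -0.31 and -0.47 in the fit without the block (adjusted p = 0.658 and 0.358), and without Nnm 24 h replicate 2 the change of 203821_at was -0.45 (0.481). At 48 h they were -0.37 and -0.34, with adjusted p of 0.598 and 0.61, or 0.138 and 0.244 with the block. HBEGF was also lower in 48 h than in 24 h controls, by 1.05 (203821_at, change -1.05) and 1.03 (38037_at, change -1.03) on the log2 scale. These changes with culture time did not pass without the block (limma adjusted p = 0.312 and 0.301) and passed with it (0.0155 and 0.0267). Without control 24 h replicate 3 they were -0.63 and -0.54 in the fit without the block (adjusted p = 0.863 and 0.839). The other HBEGF probe sets, 222076_at (2.89 to 2.98) and 244857_at (2.5 to 2.58), were not tested.

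EREG (epiregulin) 205767_at read 8.83, 8.92 and 9.98 in controls and 8.98, 7.98 and 9.31 with Nnm at 24 h. At 48 h it read 9.08, 7.86 and 8.43 in controls and 9.11, 7.36 and 8.97 with Nnm. The groups overlapped at both times, and the changes were -0.48 (95% interval -1.65 to 0.68, limma adjusted p = 0.554) and 0.03 (95% interval -1.14 to 1.19, adjusted p = 0.983). These intervals are wide enough to hold a change as large as that of TGFA. The other EREG probe set, 1569583_at, lay between 1.89 and 1.91 and was not tested. BTC (betacellulin) lay between 2.72 and 2.94 in 207326_at and between 3.49 and 4.46 in 241412_at, where only replicate 3 at 24 h, control and Nnm alike, exceeded 4 (4.44 and 4.46).

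**Figure D2:**
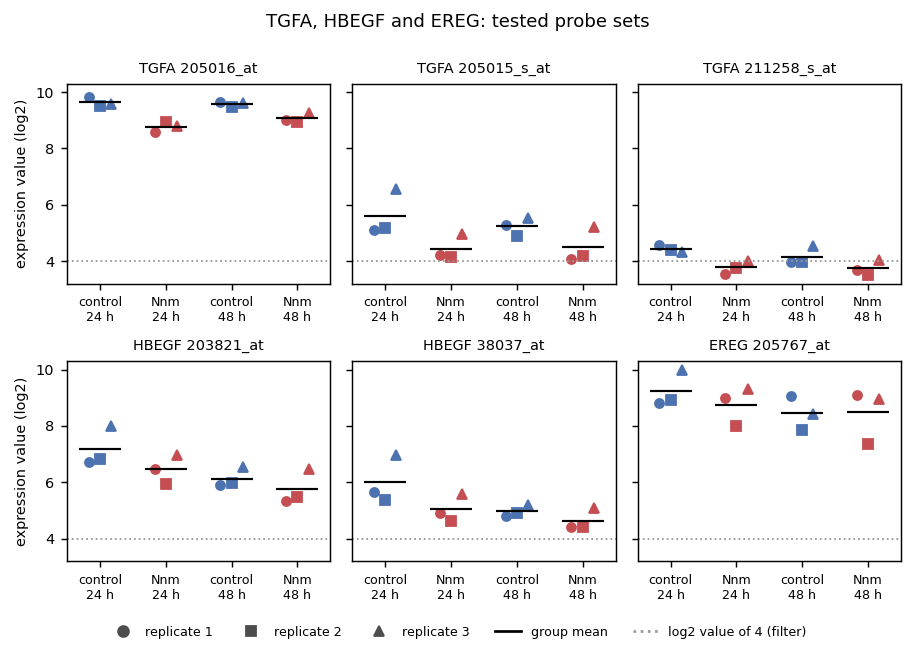
Log2 expression value (vertical axis) of the tested TGFA, HBEGF and EREG probe sets in the 4 groups, with 1 point per array (marker shape gives the replicate), bars at the group means and a dotted line at the filter value of 4. TGFA 205016_at separates Nnm from control at both times; in HBEGF and TGFA 205015_s_at replicate 3 is the highest array of every group.

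ERBB3, the receptor of NRG1, had 2 tested probe sets, of which 202454_s_at entered the test through Nnm arrays only. Probe set 226213_at read 4.92, 4.45 and 4.51 in controls and 7.57, 5.47 and 7.22 with Nnm at 24 h. At 48 h it read 4.69, 4.93 and 5.04 in controls and 6.65, 5.91 and 6.56 with Nnm. All 6 Nnm arrays were above all controls of their time, and Nnm replicate 2 was again the nearest to them. The means were 4.63 ± 0.26 and 6.75 ± 1.12 (SD, n = 3) at 24 h, and ERBB3 226213_at rose 4.37-fold (log2 change 2.13, SE 0.44, limma adjusted p = 0.0159). At 48 h the means were 4.89 ± 0.18 and 6.37 ± 0.40, a log2 change of 1.48 (SE 0.44). Its limma adjusted p was 0.0567, or 0.0186 with the replicate block and 0.0318 with the block within each time. The 24 h call was lost without Nnm 24 h replicate 1 (adjusted p = 0.0601, change 1.72), Nnm 24 h replicate 3 (0.0669, 1.90) or control 24 h replicate 3 (0.0688, 2.07), and without the filter (0.0546) or with the 24 h arrays alone (0.068). The 48 h change passed without Nnm 24 h replicate 1 (limma adjusted p = 0.0417), Nnm 24 h replicate 2 (0.00649) or Nnm 48 h replicate 2 (0.0372). Leaving out a 24 h array could not move the 48 h change, which stayed at 1.48, but only the estimate of spread that the groups share. Nnm 48 h replicate 2 was the lowest Nnm array of its time, so a larger rise without it was fixed in advance. These passes add no support.

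Probe set 202454_s_at of ERBB3 read 2.71, 2.71 and 2.58 in controls and 4.62, 2.71 and 4.55 with Nnm at 24 h, and 2.71, 2.71 and 3.32 against 2.71, 2.71 and 4.18 at 48 h. It exceeded 4 on 3 arrays only, all of them Nnm, and so entered the test through the group where it was high. The groups overlapped at both times (changes 1.29, SE 0.51, limma adjusted p = 0.104, and 0.29, SE 0.51, adjusted p = 0.753). Its adjusted p of 0.0398 with the block (0.0513 with the block within each time) and its change of 1.92 without Nnm 24 h replicate 2 therefore support nothing. The 3 other ERBB3 probe sets lay between 2.43 and 2.91 on all arrays.

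EGFR, the receptor of TGFA and of the EGF in the medium, had 5 tested probe sets that did not move together. Probe set 201984_s_at, designed on the EGFR transcript NM_005228, read 9.19, 9.27 and 9.39 in controls and 10.04, 9.84 and 9.73 with Nnm at 24 h. At 48 h it read 9.29, 9.24 and 9.38 in controls and 10.65, 9.53 and 10.54 with Nnm. All Nnm arrays were above all controls of their time. The change was 0.59 (SE 0.24, limma adjusted p = 0.122) at 24 h, and at 48 h the probe set rose 1.91-fold (log2 change 0.93, SE 0.24, limma adjusted p = 0.0385). The 48 h call was lost with 9 of the 12 arrays left out, all but Nnm 24 h replicates 1 and 2 and Nnm 48 h replicate 2 (adjusted p from 0.0516 to 0.144 where lost, change from 0.73 to 0.97), and without the filter (0.104) or with the 48 h arrays alone (0.117). The 24 h change passed without Nnm 48 h replicate 2 (limma adjusted p = 0.0119). Leaving out that array could not move the 24 h change, which stayed at 0.59, but only the estimate of spread that the groups share. The pass adds no support.

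The other 4 tested EGFR probe sets had changes below 0 at both times and did not pass. Probe set 224999_at read 10.38, 10.42 and 10.44 in controls and 9.35, 10.33 and 9.58 with Nnm at 24 h, and 10.37, 10.67 and 10.51 against 9.39, 10.51 and 9.90 at 48 h. Nnm replicate 2 lay close to the controls at both times, and the other Nnm arrays were lower (changes -0.66, SE 0.29, limma adjusted p = 0.135, or 0.0305 with the block, and -0.58, SE 0.29, adjusted p = 0.206, or 0.054 with the block). Without Nnm replicate 2 of the time compared, the changes were -0.95 (limma adjusted p = 0.0265) and -0.87 (0.045), and without Nnm replicate 1 of that time they were -0.46 and -0.31 (adjusted p = 0.377 and 0.57). Replicate 2 was the highest Nnm array at both times, so larger falls without it were fixed in advance. Those passes add no support. With the block within each time the 24 h change did not pass (adjusted p = 0.0641).

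Probe set 201983_s_at of EGFR read 11.69, 11.58 and 11.56 in controls and 11.21, 11.55 and 11.05 with Nnm at 24 h, and 11.82, 11.71 and 11.59 against 11.26, 11.49 and 11.55 at 48 h. Its Nnm arrays were below the controls at both times (changes -0.34, SE 0.14, limma adjusted p = 0.12, and -0.27, SE 0.14, adjusted p = 0.227), and the 24 h change passed without Nnm 24 h replicate 2 (-0.48, adjusted p = 0.0236). That array was the highest Nnm array at 24 h, so the larger fall was fixed in advance and the pass adds no support. Probe set 210984_x_at was lower on all Nnm arrays at 24 h (7.39 to 7.75 against 7.94 to 8.23, change -0.51, SE 0.18, limma adjusted p = 0.0786, or 0.0301 with the block and 0.0553 with the block within each time) and overlapped at 48 h (change -0.15). Probe set 211607_x_at overlapped at both times (changes -0.28 and -0.02, SE 0.20 each). The 4 untested EGFR probe sets lay between 1.82 and 2.91.

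Within arrays, EGFR 201984_s_at rose by 0.90 to 1.38 more than each of the other 4 over both times, and the difference had this direction in 6 of 6 same-numbered array pairs in each comparison. Probe set 224999_at was below 211607_x_at in its change in 6 of 6 array pairs, by 0.48 on average (difference -0.48). These comparisons were made after the EGFR values were seen to disagree and are given as a description. The permutation test used for NRG1 called 5 of 10 EGFR pairs and restates that disagreement. It did not call 224999_at against 211607_x_at (exact permutation test, adjusted p = 0.133). Among the pairs without 201984_s_at it called 211607_x_at against 210984_x_at (exact permutation test, adjusted p = 0.02, mean difference 0.19).

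ERBB2, the partner receptor without a ligand, did not pass in either probe set. Probe set 216836_s_at read 8.78, 8.10 and 8.33 in controls and 8.54, 8.39 and 8.41 with Nnm at 24 h, and 8.78, 8.02 and 8.39 against 8.92, 8.23 and 8.64 at 48 h. The groups overlapped, with changes of 0.04 (95% interval -0.48 to 0.56, limma adjusted p = 0.927) and 0.20 (95% interval -0.32 to 0.72, adjusted p = 0.619). Probe set 210930_s_at lay between 4.58 and 5.83, with changes of -0.11 and -0.22 (SE 0.32 each), and 234354_x_at lay between 1.83 and 1.85 and was not tested. All 4 ERBB4 probe sets lay between 1.91 and 2.51 on all 12 arrays, below the filter value.

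**Figure D3:**
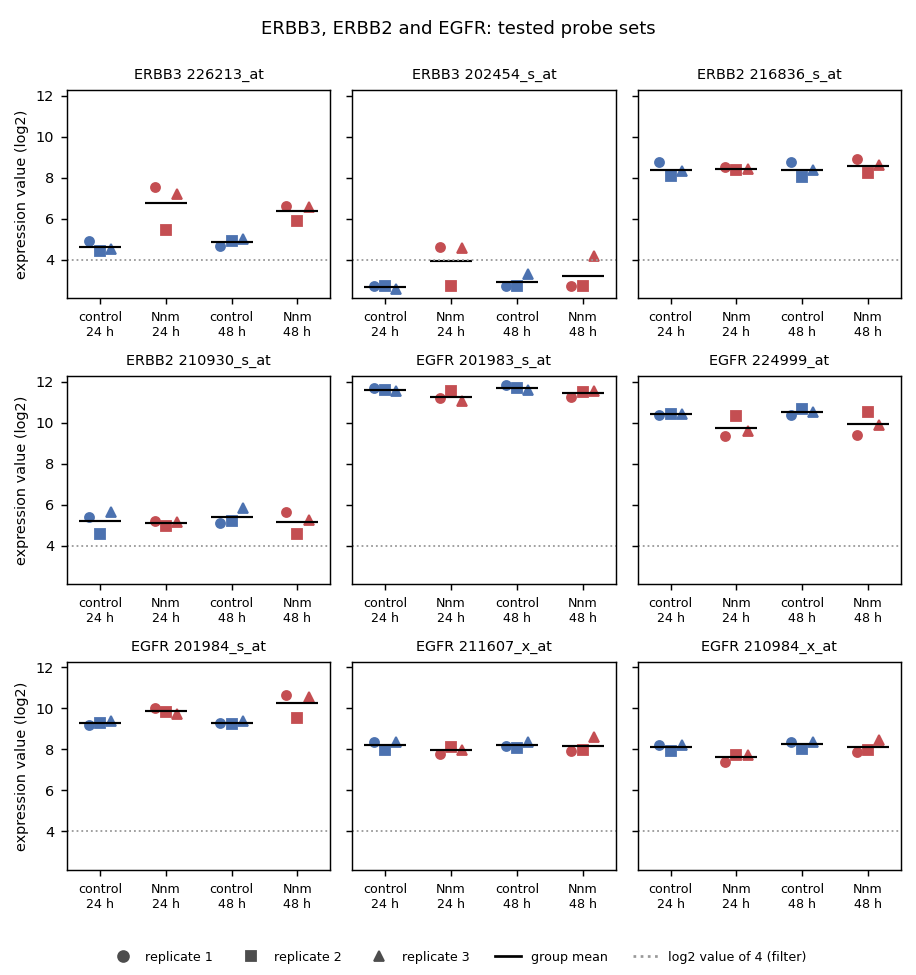
Log2 expression value (vertical axis) of the tested ERBB3, ERBB2 and EGFR probe sets in the 4 groups, with 1 point per array (marker shape gives the replicate), bars at the group means and a dotted line at the filter value of 4. ERBB3 226213_at and EGFR 201984_s_at lie higher with Nnm at both times, EGFR 224999_at is lower on replicates 1 and 3, and ERBB2 overlaps.

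No member probe set passed the test for a difference between the Nnm effects at 24 h and 48 h. For the difference of the 2 effects 0 of 20 passed (limma, smallest adjusted p 0.889), and 1 had an unadjusted p under 0.05, where 0% of all probe sets passed and 1090 had such a p; with the replicate block 0 of 20 and 0% passed as well (smallest adjusted p 0.338). The difference was 1.40 (SE 1.08) for NRG1 206343_s_at, -0.64 (SE 0.63) for ERBB3 226213_at, 0.35 (SE 0.20) for TGFA 205016_at and 0.35 (SE 0.35) for EGFR 201984_s_at. The smaller 48 h changes of NRG1, ERBB3 and TGFA were thus not shown to differ from those at 24 h. Between the 2 control groups 0 of 20 passed, against 0.0756% of all probe sets. Without the block, 2 of 20 members had an unadjusted p under 0.05 (limma), beside 2670 of all 19832 tested probe sets. With the block 2 members passed, both of HBEGF, against 6.18% of all.

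**Figure D4:**
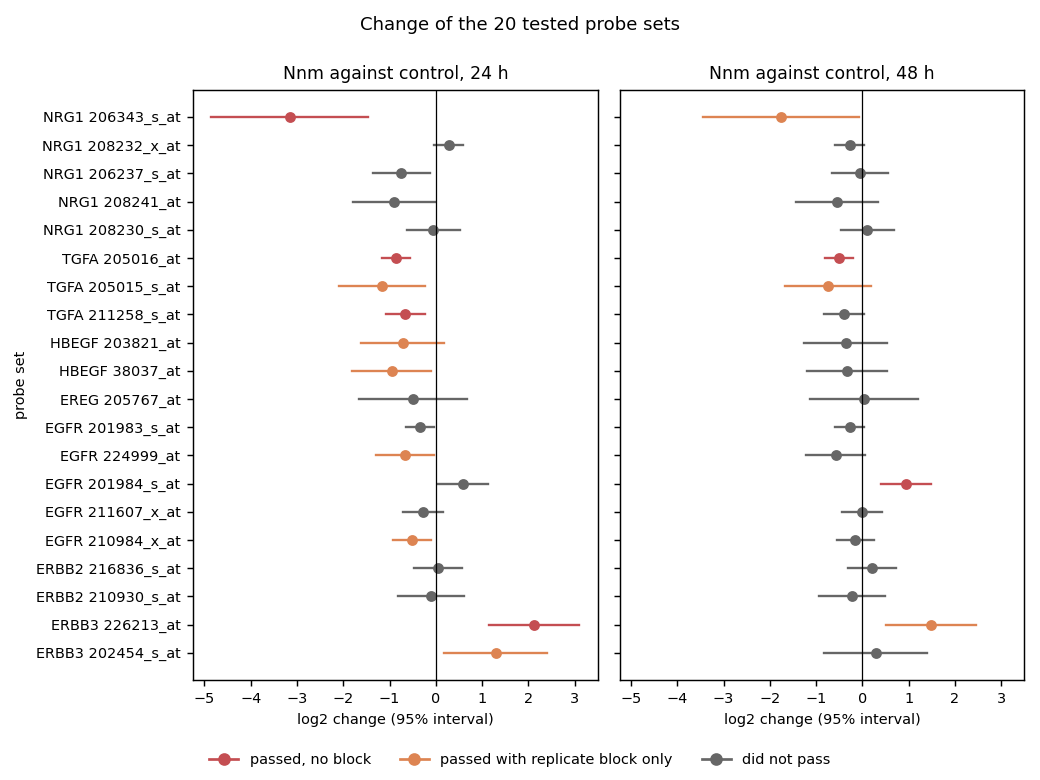
Log2 change with Nnm (horizontal axis, point with 95% interval) of the 20 tested member probe sets at 24 h and 48 h, coloured by whether the probe set passed limma at an adjusted p under 0.05. NRG1 206343_s_at at -3.16 and ERBB3 226213_at at 2.13 are the extremes at 24 h, and the 5 EGFR probe sets lie on both sides of 0.

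The rest of the pathway was described with 1 probe set per gene, that with the highest mean, and of all 10907 genes 16.4% passed at 24 h and 11.4% at 48 h, and with the replicate block, whose counts are given in parentheses for each list, 36.7% and 29.9%. Genes that release or cut ligands were mostly measured, 9 of 11 being tested, with 2 higher and 0 lower at 24 h and 1 higher and 1 lower at 48 h (3 higher, and 3 higher with 1 lower, with the block). BACE1, a protease that cuts NRG1 among other proteins, rose by 1.22 (SE 0.28, limma adjusted p = 0.0208) and 1.77 (SE 0.28, adjusted p = 0.00877). ADAM17, the main sheddase of TGFA and HBEGF, rose by 0.59 at 24 h (adjusted p = 0.0296; 0.34 and 0.166 at 48 h). ADAM9, another sheddase, had a change of 0.05 at 24 h and fell by 0.51 at 48 h (adjusted p = 0.0412).

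Of 17 tested receptor adaptors and turnover genes, 5 were higher and 0 lower at 24 h, and 2 higher and 1 lower at 48 h (7 and 1, and 3 and 2, with the block). SOS1, the exchange factor that loads RAS, rose by 0.95 (SE 0.18, limma adjusted p = 0.0129) and 0.75 (adjusted p = 0.031). GAB1, a docking protein, rose by 0.56 at 24 h (adjusted p = 0.0248), and the phosphatase PTPN11 fell by 0.46 at 48 h (adjusted p = 0.0295). The other members that passed were SOS2, CBLB and EPS15, named because they complete a count of 5 and chosen after their values were seen. The median change of the list was 0.27 at 24 h and 0.16 at 48 h, beside 0.01 and 0.02 over all tested genes.

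None of the 7 tested genes of the ERK chain passed at either time (1 higher at 24 h, KSR1, and 1 lower at 48 h, MAP2K1, with the block). MAPK3 (ERK1) had changes of -0.40 (limma adjusted p = 0.0841) and -0.12, KSR1, a scaffold of the chain, 1.24 (adjusted p = 0.0925, or 0.022 with the block) and 0.44, and MAP2K1 (MEK1) -0.09 and -0.30 (adjusted p = 0.114 at 48 h, or 0.0342 with the block). KSR1 exceeded 4 on Nnm arrays only and entered the test through them, so its pass with the block supports nothing. Of the 8 tested genes of the PI3K and AKT arm, AKT2 alone passed and fell by 0.66 at 24 h (SE 0.19, limma adjusted p = 0.0431; 1 higher and 2 lower with the block). The catalytic subunits PIK3CB and PIK3CD had 24 h changes of 0.32 and 0.60 and did not pass.

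Of 15 tested feedback inhibitors, 2 were higher and 1 lower at 24 h, and 0 higher and 1 lower at 48 h (4 and 1, and 1 and 1, with the block). PTPN1, a phosphatase that acts on receptor kinases, fell by 0.94 (SE 0.18, limma adjusted p = 0.0124) and 0.85 (adjusted p = 0.0206). LRIG1, which promotes the degradation of ERBB receptors, rose by 0.85 at 24 h (adjusted p = 0.0198), and DUSP6, a phosphatase of ERK, rose by 0.58 at 24 h (adjusted p = 0.0444; 0.55 and 0.0625 at 48 h). Of 16 tested genes known to respond to ERK, 0 were higher and 1 lower at each time (1 and 2 at 24 h, 4 and 2 at 48 h, with the block). FOSL1, an AP-1 subunit, fell by 2.49 at 24 h (SE 0.63, limma adjusted p = 0.0284; -1.01 and 0.31 at 48 h). FOSL1, the 1 call at 24 h, exceeded 4 on 3 of 3 control and 0 of 3 Nnm arrays at 24 h and entered the test through controls only, so its call supports nothing and its change rests on Nnm values under the filter. MYC fell by 0.66 at 48 h (adjusted p = 0.0338), and IER3 had changes of 0.57 and 1.05 (adjusted p = 0.244 and 0.0649). EGF itself, the 1 tested gene among 5 other ligands of the family, had changes of 1.04 (SE 0.33, limma adjusted p = 0.0592, or 0.0324 with the block) and 0.72 (adjusted p = 0.178).

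**Figure D5:**
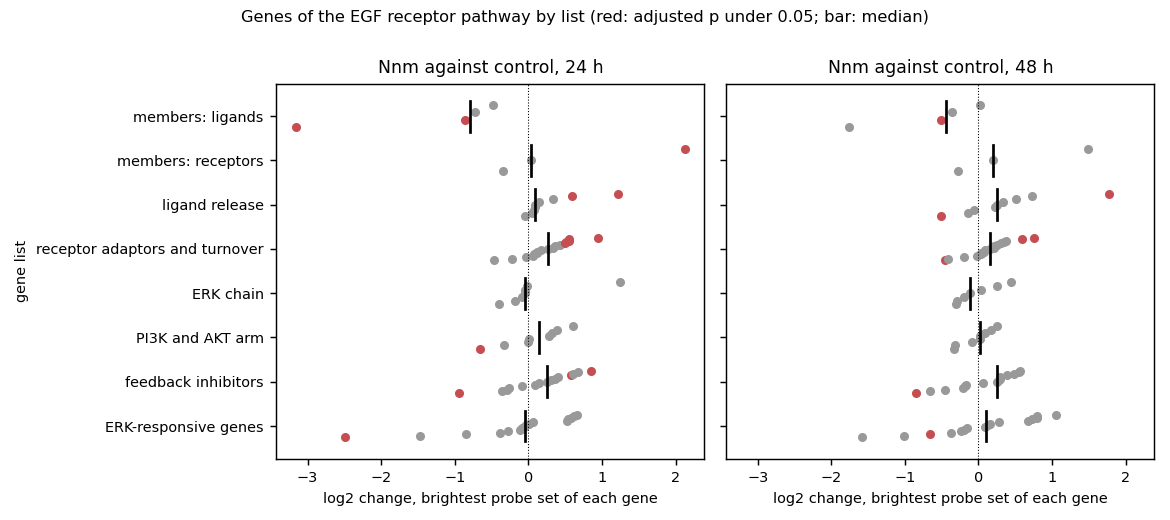
Log2 change with Nnm (horizontal axis) of each tested gene at 24 h and 48 h, by gene list (rows), 1 point per gene with its probe set of highest mean, red where the limma adjusted p is under 0.05, and a bar at the list's median. The member ligands have a median of -0.79 at 24 h and -0.44 at 48 h, and the medians of the other lists shown lie between -0.12 and 0.27. The ligand medians rest on 4 tested genes, with NRG1 entered by its only probe set that passed. Between 48 h and 24 h controls, without Nnm, the same 4 genes had a median of -0.85, beside -0.02 over all tested genes. A low ligand median was thus not particular to the Nnm comparisons.

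Among the 10906 other tested genes, those whose pattern over the 12 arrays was most like NRG1 206343_s_at were PIH1D1 (Pearson r = 0.99), GART (0.98) and PAK1IP1 (0.98). RNF103, FAM171B and AMPD3 were most like ERBB3 226213_at (0.99, 0.99 and 0.98). For TGFA 205016_at they were RAB3B, PCNX4 and BCKDK (0.95, 0.94 and 0.94), and for TGFA 211258_s_at LRP8, FAXC and STT3A (0.91, 0.91 and 0.90). BOD1L1, ZNF250 and LOXL1-AS1 were most like EGFR 201984_s_at (0.95 each). These correlations describe arrays that share treatment, time and replicate number, with Nnm and control apart, and are given without a test.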

How the data were processed

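Total RNA from 12 HK-2 cultures was measured on 1-colour expression arrays with 54675 probe sets. The deposited values are log2 expression values normalised by the authors with GCRMA, per the submitters' processing notes; they name no version, and low values cluster at the model's background. The arrays give no read depth, and their number (3 per group) limits the precision. A probe set was named where the platform annotation gave it 1 gene symbol (41091; 1801 had several, 11721 were not listed, and 62 were controls). The 19832 with a log2 value above 4 on at least 3 arrays were fitted with limma 3.58.1 (R 4.3.3) at the level of probe sets, over all 12 arrays in 1 model of 4 groups, without a block, and p-values were adjusted by Benjamini-Hochberg over all of them. Replicates were arrays labelled as biological replicates; nothing says how cultures were started, so p-values measure the spread between these samples.

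Deviations from group means of arrays with the same replicate number correlated at 0.31 to 0.69 in all 18 pairs between groups (-0.57 to 0.11 in 36 pairs of different number), so the numbers were taken to pair the arrays, and a fit with the number as a block was run. Scripts were tested on simulated data. All probe sets of the members are described. Of each pathway list the text names up to 3 genes with the smallest p at either time, and for members that passed the 3 most correlated genes. The adaptor list is an exception, where SOS2, CBLB and EPS15 were named as well after their values were seen. The members and gene lists were chosen with earlier results of these data known, so they support nothing independently. Alternatives covered the filter, the scaling between arrays, array weights, the variance model, 1 probe set per gene, the block, the arrays in the fit and each array left out. Promoter windows came from RefSeq tables (GRCh38.p14), scanned with Python 3.11.15; overlapping matches were counted separately. Figures were drawn with matplotlib 3.10.9.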

Additional observations from a re-analysis of the deposited data

Results flagged for a closer look

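NRG1 208232_x_at moved in opposite directions at the 2 times: all 3 Nnm arrays lay above the controls at 24 h and below them at 48 h, a difference of -0.55 (SE 0.20) between the effects. The difference was not past the threshold in limma (adjusted p = 0.889, or 0.338 with the replicate block), and the opposite directions themselves were not tested. Its controls differed by 0.29 between the times.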

How the results depend on the processing

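The changes of the members that passed kept their direction under every alternative run, and their calls did not all hold. TGFA 205016_at at 24 h passed under every one. Without the filter on dim probe sets, 1166 probe sets passed at 24 h (1 of the members, TGFA 205016_at) and 885 at 48 h (0 of the members), and 1 for the difference between the times; more probe sets are then adjusted for. With only the arrays of the time compared, 692 and 76 passed (1 and 0 members), from fewer arrays. With the replicate block 6848 and 5629 passed (10 and 5 members) and 1226 between the controls (2 members). The block could not move any change, since every group holds each replicate number, so unchanged directions under it show nothing. It changed no other member's call than those named with it above. With the block within each time 5047 and 3909 passed (7 members at 24 h, with NRG1 206343_s_at at 48 h not passing). With array weights 7684 and 5028 passed (11 and 5 members), 17 for the difference between the times and 92 between the controls. Without both Nnm replicate 2 arrays 5959 and 5044 passed (10 and 4 members), 23 for the difference, 48 between the controls, and 7 of 10 NRG1 pairs. For these last 2 settings the cause was not tested. The Nnm replicate 2 arrays were the Nnm arrays nearest to the controls in these same data, so the counts without them support nothing further. With median centring 1 member passed at 48 h, where TGFA 205016_at had an adjusted p of 0.0544 in limma.

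With each array left out in turn, 244 to 4997 probe sets passed at 24 h (1 to 8 members), 241 to 3828 at 48 h (0 to 3 members), 0 to 10 for the difference, 3 to 24 between the controls, and 0 to 7 of 10 NRG1 pairs (0 when any 1 control 24 h array, or control 48 h replicate 2 or 3, was left out, and 7 without Nnm 48 h replicate 2); over all probe sets the lowest 24 h count was without control 24 h replicate 3 and the highest without Nnm 24 h replicate 2, and at 48 h these were Nnm 48 h replicates 1 and 2.

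Reversals occurred only in changes that passed nowhere. At 48 h EGFR 211607_x_at became 0.0011 with median centring, 0.15 with array weights and 0.078 without both Nnm replicate 2 arrays. NRG1 206237_s_at became 0.044 with weights and 0.0069 without those arrays, ERBB2 210930_s_at became 0.066 without them, and EREG 205767_at became -0.0057 with quantile normalisation. ERBB2 216836_s_at at 24 h became -0.043 with weights. With each array left out, the 48 h ranges were -0.24 to 0.11 (EGFR 211607_x_at), -0.46 to 0.066 (ERBB2 210930_s_at), -0.20 to 0.53 (ERBB3 202454_s_at), -0.29 to 0.58 (EREG 205767_at), -0.18 to 0.016 (NRG1 206237_s_at) and -0.27 to 0.41 (NRG1 208230_s_at). At 24 h they were -0.42 to 0.12 (ERBB2 210930_s_at), -0.11 to 0.23 (ERBB2 216836_s_at) and -0.099 to 0.012 (NRG1 208230_s_at). The cause of these reversals was not tested. With median centring the median change over all tested probe sets was -0.01 at 24 h and 0.03 at 48 h, beside 0.00 and 0.01 in the main fit.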
